A study of Homo sapiens with 4 samples.

Results

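The globin genes *HBZ*, *HBA1*, *HBA2*, *HBE1*, *HBG2* and *HBB* were examined as a set, by gene symbol, to compare the α-like with the β-like transcripts and the embryonic, fetal and adult ones after each value was divided by gene length. They are 6 of the 143 genes in the authors' deposited comparison, with 3 α-like genes (*HBZ*, *HBA1* and *HBA2*) and 3 β-like genes (*HBE1*, *HBG2* and *HBB*). RNA-seq was performed on K562, a long-established line of human erythroleukemia cells that makes embryonic and fetal hemoglobin when it is differentiated. Cells of both groups received 10 µM hemin, which drives this differentiation, and were incubated for 48 h either with 20 µM TRIAC, a metabolite of thyroid hormone, or with DMSO, its solvent. Each group has 2 libraries of the same single cell line, and no source used here says whether these were grown as separate cultures. The deposited values are 1 expression value per gene and group. No spread between libraries, no interval and no test could therefore be computed for any difference below. The depth of the libraries is unknown, and with no unit given it is unclear whether the values were scaled for it. A ratio of TRIAC to DMSO may thus hold a difference in depth, while a share within 1 group does not. The 6 genes have a row because the authors placed them in a table of genes that differ between TRIAC and DMSO, so that they all differ is given by the table and not a result here.

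Hemoglobin is a tetramer of a pair of α-like and a pair of β-like chains. The α-like genes lie together on chromosome 16 and the β-like genes on chromosome 11, each cluster in the order in which its genes are used in development. ζ-globin, from *HBZ*, is the embryonic α-like chain and is replaced by α-globin, from *HBA1* and *HBA2*, which serves the fetus and the adult. ε-globin, from *HBE1*, is the embryonic β-like chain, γ-globin, from *HBG1* and *HBG2*, the fetal one, and β-globin, from *HBB*, the adult one. Red cell precursors need similar amounts of chains from both clusters, since unpaired chains, free α-globin in particular, damage the cell, and an imbalance between them is the basis of the thalassemias.

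The coding sequences show which of these transcripts sequencing reads can tell apart, and the last 60 coding bases of 3 α-like genes, stop codon included, are given here for that reason, from the canonical GENCODE 44 transcripts (GRCh38, coding strand, 5′ to 3′). Capitals mark the bases of *HBZ* that differ from *HBA1*; *HBA1* and *HBA2* do not differ from each other.
HBZ: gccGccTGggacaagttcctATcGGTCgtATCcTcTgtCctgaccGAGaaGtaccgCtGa
HBA1: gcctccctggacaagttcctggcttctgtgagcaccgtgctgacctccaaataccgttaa
HBA2: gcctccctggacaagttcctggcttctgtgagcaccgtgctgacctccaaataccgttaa
In this stretch *HBZ* differs from *HBA1* at 21 of 60 bases, and over the whole coding sequence at 135 of 429 bases, an identity of 68.5%. *HBA1* and *HBA2* differ at 0 of 429 coding bases, and their transcripts are identical over the first 480 bases from the 5′ end. A read from that shared part fits both genes equally, so the split between *HBA1* and *HBA2* is uncertain. How such reads were counted is unknown, so the sum of *HBA1* and *HBA2* is uncertain too. *HBZ* has bases of its own throughout the stretch shown.

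The same stretch of the embryonic and the fetal β-like gene shows a closer pair, with capitals at the bases that differ between *HBE1* and *HBG2*.
HBE1: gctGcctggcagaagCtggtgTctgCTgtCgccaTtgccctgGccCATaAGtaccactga
HBG2: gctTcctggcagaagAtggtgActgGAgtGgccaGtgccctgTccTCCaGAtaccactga
They differ at 13 of 60 bases here and at 73 of 444 coding bases, an identity of 83.6%. *HBB* has a coding identity of 79.1% with *HBE1* and of 76.6% with *HBG2*. *HBG1*, the second γ-globin gene, differs from *HBG2* at only 2 of 444 coding bases. *HBG1* has no row and was not analysed here, so the value of *HBG2* may hold reads of *HBG1* or lack reads of its own, and all β-like sums below are without *HBG1*.

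The expression values were divided by the gene length that the authors list, and are given per kb of that length. Because this length enters every level, it was compared with the reference. The listed length is 583 bases for *HBG2* and 626 for *HBB*, close to their canonical transcripts of 586 and 628 bases. It is 690 bases for *HBA1* and 622 for *HBA2*, against canonical transcripts of 577 and 576 bases. For *HBZ* it is 589 bases, shorter than the canonical transcript of 798 bases. *HBE1* stands apart, since its listed length of 1632 bases is 2.62 times its canonical transcript of 623 bases and longer than the whole gene with introns in RefSeq, 1601 bases. The level of *HBE1* per kb is therefore low by the listed length, and results below that turn on it are also given with other lengths. The ratio of TRIAC to DMSO of a single gene does not depend on length.

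*HBZ* (NCBI Gene 3050, chromosome 16 from 152644 to 154503 in GRCh38) had a value of 354.6 in DMSO-treated cells and of 12112 in TRIAC-treated cells. Per kb these are 602.1 and 20564, 34.2 times higher with TRIAC. With DMSO it was the second lowest of the globins per kb, above *HBB* alone.

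*HBA1* (NCBI Gene 3039, chromosome 16 from 176680 to 177522) had 6221 per kb with DMSO and 24243 with TRIAC, 3.90 times higher. *HBA2* (NCBI Gene 3040, chromosome 16 from 172876 to 173710) had 2852 per kb with DMSO and 12792 with TRIAC, 4.49 times higher. The level of *HBA1* was 2.18 times that of *HBA2* with DMSO and 1.90 times with TRIAC, a split that the shared sequence leaves uncertain. Added together, *HBA1* and *HBA2* had 9073 per kb with DMSO and 37035 with TRIAC, which is 4.08 times higher.

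Among the β-like genes on chromosome 11, *HBG2* (NCBI Gene 3048) had the highest level of all, 44270 per kb with DMSO and 195971 with TRIAC, 4.43 times higher. *HBE1* (NCBI Gene 3046) had 3616 per kb with DMSO and 16409 with TRIAC, 4.54 times higher. With the canonical transcript length its levels are 9473 and 42985 per kb. *HBB* (NCBI Gene 3043) had 4.01 per kb with DMSO and 78.8 with TRIAC. Its ratio of 19.6 rests on a DMSO value of 2.51, and it was the least abundant globin in both groups.

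**Figure D1:**
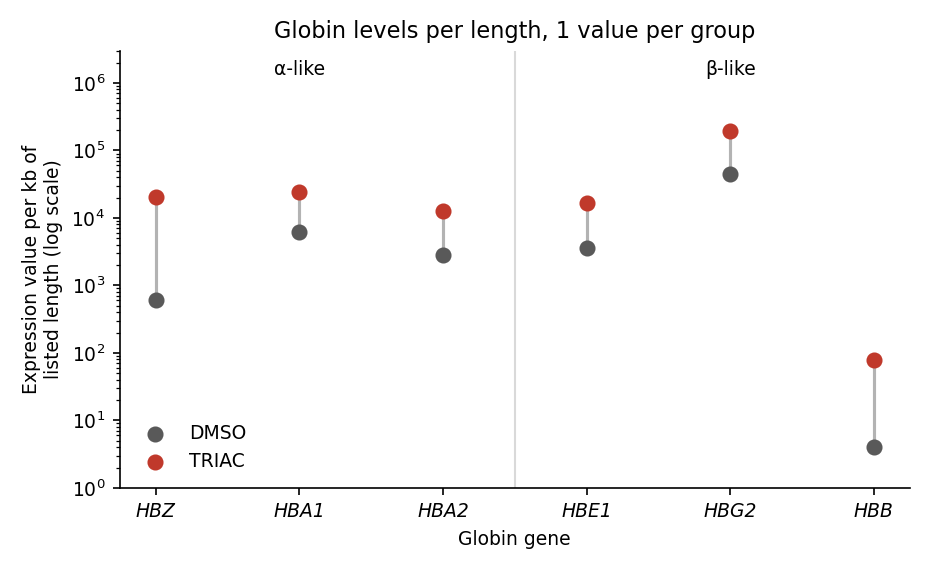
Expression value per kb of listed length (vertical axis, log scale) of the 6 globin genes (horizontal axis) in K562 cells with DMSO (gray points) and with TRIAC (red points), with 1 value per group and therefore no error bars. Gray lines connect both points of each gene; that of *HBZ* spans 602.1 to 20564, while *HBA1*, *HBA2*, *HBE1* and *HBG2* have lines of similar length.

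With DMSO the order per kb was *HBG2*, *HBA1*, *HBE1*, *HBA2*, *HBZ* and *HBB*. With the canonical or the coding lengths *HBE1* stood above *HBA1* in both groups, at 9473 against 7439 per kb with DMSO and 42985 against 28991 with TRIAC by the canonical ones. With TRIAC and the listed length *HBZ* stood at rank 3, behind *HBG2* and *HBA1* and ahead of *HBE1*, *HBA2* and *HBB*. The place of *HBZ* above *HBA2* with TRIAC was found with the canonical, the coding and the longest coding transcript lengths as well. Its place above *HBE1* was not. The place above *HBA2* also depends on the split between *HBA1* and *HBA2*, which the shared sequence leaves uncertain. *HBZ* was at 1.25 times *HBE1* per kb with TRIAC by the listed length and at 0.353 times by the canonical length, against 0.166 and 0.0469 times with DMSO. Since no spread is known, neighbours in these orders cannot be said to differ.

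The α-like sum, *HBZ* with *HBA1* and *HBA2*, was 9675 per kb with DMSO and 57599 with TRIAC, 5.95 times higher. *HBZ* made up 6.22% of it with DMSO and 35.7% with TRIAC. *HBA1* made up 64.3% and 42.1%, and *HBA2* 29.5% and 22.2%. For each transcript of *HBA1* and *HBA2* together there were 0.0664 of *HBZ* with DMSO and 0.555 with TRIAC on this scale. Of the difference in the α-like sum between the groups, *HBZ* accounts for 41.7%, *HBA1* for 37.6% and *HBA2* for 20.7%. With the canonical lengths *HBA1* comes first, at 45.8% against 31.3% for *HBZ*, and it also does without division, at 40.9% against 38.7%. The 7 choices of length compared were the listed length, none, 2 reductions of it, and the coding, canonical and longest coding transcript lengths. Over these the ζ share lay between 4.05% and 6.57% with DMSO and between 26.2% and 37.0% with TRIAC. With *HBA1* and *HBA2* averaged instead of added, the ζ share was 11.7% with DMSO and 52.6% with TRIAC. If reads shared by *HBA1* and *HBA2* were left out, the ζ shares given here would be too high, which was not examined.

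The β-like sum, *HBE1* with *HBG2* and *HBB*, was 47890 per kb with DMSO and 212459 with TRIAC, 4.44 times higher. The γ and ε shares within it were close in both groups, while the shares within the α-like sum were not. The γ share, from *HBG2*, was 92.4% with DMSO and 92.2% with TRIAC. The ε share, from *HBE1*, was 7.55% with DMSO and 7.72% with TRIAC, and 17.7% and 18.1% with the canonical lengths. The β share, from *HBB*, was 0.0084% with DMSO and 0.037% with TRIAC. The level of *HBG2* was 12.2 times that of *HBE1* with DMSO and 11.9 times with TRIAC by the listed length, and 4.65 and 4.54 times by the canonical lengths. Whether differences as small as those in the γ and ε shares exceed the spread between libraries could not be examined.

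**Figure D2:**
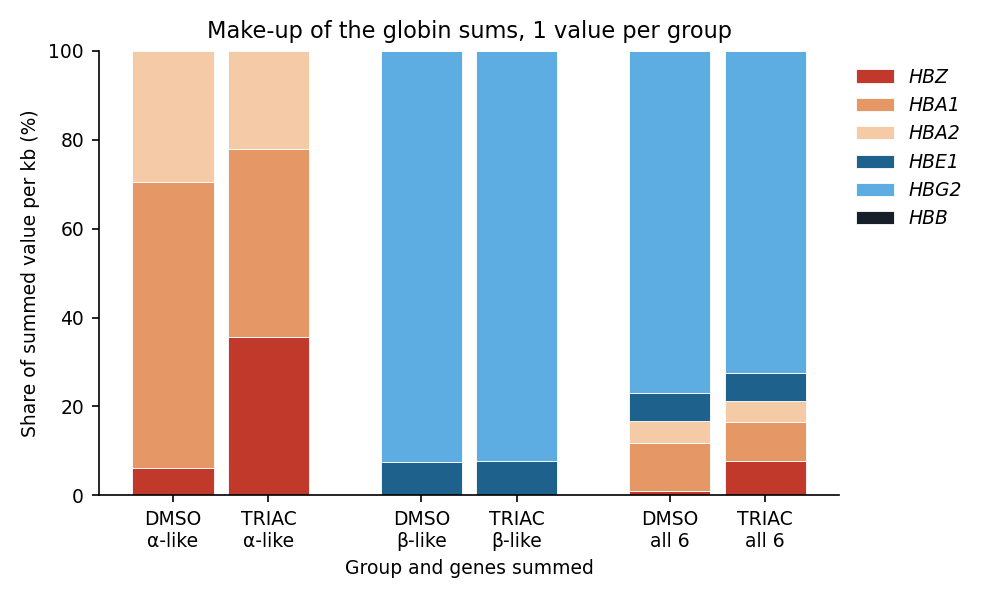
Share of the summed expression value per kb of listed length (vertical axis, percent) taken by each globin gene (colors) in the α-like sum, the β-like sum and the sum of all 6 genes, for DMSO-treated and TRIAC-treated K562 cells, 1 value per group. *HBZ* takes 6.22% and 35.7% of the α-like sum, *HBG2* takes 92.4% and 92.2% of the β-like sum, and *HBB* is too low to be seen.

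The β-like sum exceeded the α-like sum in both groups. It was 4.95 times the α-like sum with DMSO and 3.69 times with TRIAC. Expressed as α-like over β-like, the ratio was 0.202 with DMSO and 0.271 with TRIAC, 1.34 times higher. Over the same 7 choices of length the ratio lay between 0.194 and 0.251 with DMSO and between 0.244 and 0.299 with TRIAC. The ratio was higher with TRIAC under each of them. With *HBA1* and *HBA2* averaged, it was 0.107 with DMSO and 0.184 with TRIAC. That setting covers only the case of shared reads counted for both genes. If shared reads were left out instead, the levels of *HBA1*, *HBA2* and *HBG2* would be too low. The ratio was not examined for that case, so the size of the β-like excess is uncertain. Without *HBZ* the direction turned, with 0.189 for DMSO and 0.174 for TRIAC. This lower ratio with TRIAC was found in 7 of 7 choices of length. The choices only reweight the same gene ratios, so they are not independent checks. The higher α-like to β-like ratio with TRIAC thus rests on *HBZ*, since *HBA1* and *HBA2* together differed by 4.08 times and the β-like sum by 4.44 times.

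The excess of β-like transcripts itself rests on *HBG2*. Without it the α-like sum was 2.67 times the rest of the β-like sum with DMSO and 3.49 times with TRIAC. That rest is nearly all *HBE1*, and with the canonical lengths the α-like sum was 1.16 and 1.35 times the rest. The sums hold only the genes with a row. *HBG1* and *HBD*, both β-like, and *HBM* and *HBQ1*, both α-like, are left out, and with them the ratio would be another.

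By stage of development, the embryonic transcripts *HBZ* and *HBE1* made up 7.33% of all 6 globins per kb with DMSO and 13.7% with TRIAC. The fetal *HBG2* made up 76.9% and 72.6%, and *HBA1* with *HBA2*, which serve fetus and adult, 15.8% and 13.7%. The adult *HBB* made up 0.0070% with DMSO and 0.029% with TRIAC. Within the embryonic pair, *HBZ* went from 1.05% to 7.62% of all 6 globins, while *HBE1* was at 6.28% and 6.08%. With the canonical lengths the embryonic share was 15.4% with DMSO, since *HBE1* then counts for more, and over the 7 choices of length it lay between 5.89% and 16.4% with DMSO and between 12.4% and 21.9% with TRIAC. It was higher with TRIAC under each of them. This adds little, since *HBZ* and *HBE1* have higher ratios of TRIAC to DMSO than *HBG2*, *HBA1* and *HBA2* under any length. Without *HBZ* the embryonic share was 6.35% with DMSO and 6.58% with TRIAC.

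All 6 globins together had 57565 per kb with DMSO and 270058 with TRIAC, 4.69 times higher. Of this difference *HBG2* accounts for 71.4%, *HBZ* for 9.39%, *HBA1* for 8.48%, *HBE1* for 6.02% and *HBA2* for 4.68%. *HBB* accounts for 0.035%. The order of the smaller parts depends on the length. With the canonical lengths *HBG2* accounts for 65.2%, *HBE1* for 14.5%, *HBA1* for 9.31% and *HBZ* for 6.36%. *HBZ*, with the highest ratio of the 6, thus adds less in level than the fetal *HBG2*, with one of the lower ratios.

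Set among the 143 genes of the table, the 6 globins made up 49.9% of the summed value per kb with DMSO and 87.9% with TRIAC. *HBG2* alone made up 38.3% and 63.8%. Without division by length the 6 globins made up 24.6% and 72.8% of the summed values, since most other genes of the table are longer. *HBZ* ranked 26th per kb with DMSO and 3rd with TRIAC, behind *HBG2* and *HBA1*. The globins other than *HBB* took ranks 1 to 5 with TRIAC. *HBB* ranked 132nd with DMSO and 65th with TRIAC. These ranks and shares cover only genes that the authors placed in the table and say nothing of abundant genes without a row. The table holds 61 higher and 82 lower genes, with no ratio between 0.366 and 3.35. Its higher genes as a whole therefore must take a larger share with TRIAC. The shifts in globin share and rank between the groups thus follow in part from how the table was chosen.

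By ratio, 140 genes with a value above 0 in both groups can be compared, and 3 genes are listed at 0 in 1 group. A value at least 4 times higher with TRIAC was found for 5 of 6 globins, all but *HBA1*, against 39.3% of the 140 genes. At least 8 times higher were 2 of 6, *HBZ* and *HBB*, against 19.3% of the genes, and at least 2 times higher were 6 of 6 against 42.9%. Since no gene in the table lies between a ratio of 0.366 and one of 3.35, the lowest of these thresholds separates only higher from lower genes. The shares of the 140 genes include the lower genes, which could not pass. Of the 60 higher genes, 55 were at least 4 times and 27 at least 8 times higher. Set beside these, the globins passed no more often than the higher genes as a whole. The median ratio of the 60 higher genes was 7.43, so *HBA1*, *HBA2*, *HBE1* and *HBG2*, at 3.90 to 4.54, stood in the lower part of the higher genes and *HBZ* and *HBB* in the upper part. *HBZ* ranked second by ratio, between *NETO2* at 40.1 and *AHSP* at 28.7.

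**Figure D3:**
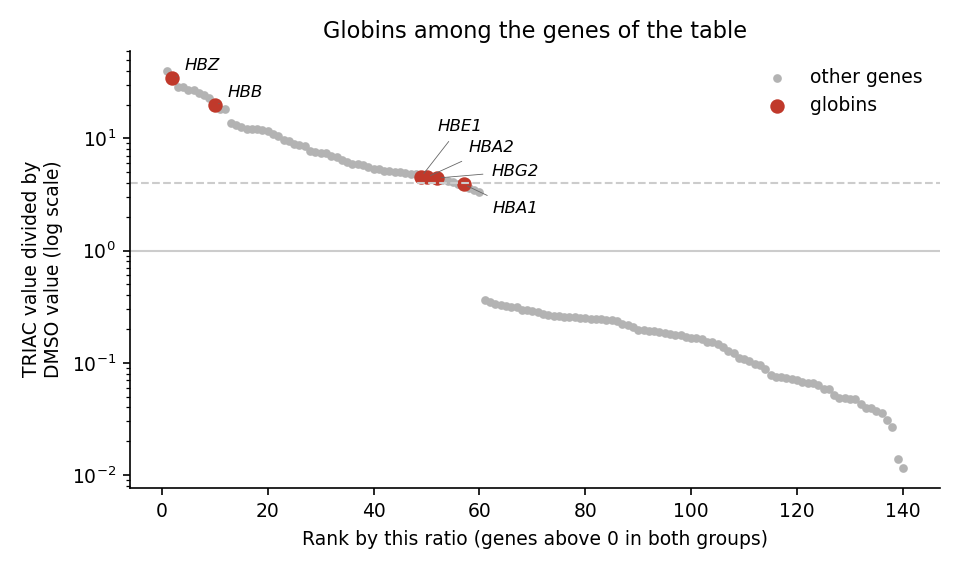
TRIAC value divided by DMSO value (vertical axis, log scale) for the 140 genes above 0 in both groups, in order of this ratio (horizontal axis), with the globins in red and other genes in gray; the dashed line marks a ratio of 4 and the solid line a ratio of 1. *HBZ* (34.2) and *HBB* (19.6) lie near the top, and the other 4 globins lie close together between 3.90 and 4.54.

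Genes that serve globin chains were taken from lists. None of 9 other globin genes has a row. Of 14 genes of chaperones and heme supply, 3 have a row, each with a higher value in TRIAC-treated cells, beside 61 of the 143 genes of the table (42.7%); the others were not analysed here. *AHSP*, the chaperone that binds free α-globin, had 4.39 per kb with DMSO and 126 with TRIAC. For 1000 of α-like transcripts per kb this is 0.454 of *AHSP* with DMSO and 2.19 with TRIAC, from a DMSO value of 2.49. *ALAS2*, the erythroid enzyme that starts heme synthesis, had 10.0 and 182 per kb, 18.2 times higher, and *UROS*, a later enzyme of that pathway, 78.2 and 332, 4.25 times higher. Of 24 regulators of globin switching and of the globin loci, 1 has a row, *KLF1*, an activator of erythroid genes that acts at the *HBB* promoter. *KLF1* had 224 per kb with DMSO and 1293 with TRIAC, 5.77 times higher. None of 5 genes of heme breakdown and iron storage has a row.

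The label of the cells was compared with markers. Of 12 erythroid markers, *HBG2* and *HBE1* among them, 7 have a row, 7 were higher with TRIAC and none was lower, again beside 42.7% of the table. Besides these globins, *AHSP*, *ALAS2* and *KLF1* among the 7 were already counted above. Only *SLC4A1*, with a ratio of 13.8, and *HEMGN*, with a ratio of 18.2, are new here. The 7 have ratios from 4.43 for *HBG2* to 28.7 for *AHSP*. Of 4 myeloid markers, 2 have a row and were lower, *SPI1* with a ratio of 0.220 and *CD68* with a ratio of 0.261, beside 82 of the 143 genes of the table (57.3%) that were lower. None of 4 megakaryocyte markers has a row. In such bulk libraries a larger share of cells that make globin and more globin RNA per cell cannot be told apart, and the part of these markers in the globin ratios was not tested.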

How the data were processed

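Gene expression of K562 cells was measured by RNA-seq in 2 TRIAC and 2 DMSO libraries. The authors deposited 1 expression signal value per gene and group, whose unit is not given, and a gene length in bases. As tools, the submitters' processing notes list Bowtie2, RSEM and edgeR, with CASAVA 1.8, FastQC and Trimmomatic and the build GRCh38, while their design text gives BWA, TopHat and Cufflinks; which of them made the values is unclear. The values were taken as not yet divided by length, because *AHSP* and *C17orf99*, of different lengths, share the value 2.49. This is the only such match among the DMSO values and may be a coincidence, so the choice remains an assumption. Values without division are given as an alternative. The table's own fold changes, p-values and adjusted p-values were not used, and its rule for including genes was not examined.

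Values were divided by listed length and multiplied by 1000, then summed. With 1 value per group, nothing was tested. Coding sequences and transcript lengths came from GENCODE 44, gene positions from RefSeq (GRCh38.p14), matched by gene ID for 6 of 6 globins. Coding length was taken from the GENCODE coding sequence, and coding sequences were compared base by base without gaps. The globins are all named, other genes come from lists and ranks, and members and lists were chosen with earlier results of these data known. Python 3.11.15, pandas 2.3.3, numpy 2.4.6 and matplotlib 3.10.9 were used, and the sums were tested on simulated data.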

Additional observations from a re-analysis of the deposited data

How the results depend on the processing

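No paired analysis was possible because the deposited values are 1 per group, and for the same reason no replicate could be left out. A value was taken to have moved when it changed by more than 1.5 times. Of 156 values under alternatives 120 did not, 32 did and 4 turned direction. These counts do not measure robustness, since some values could not move. The ζ share does not involve the β-like genes, and the ε and γ shares do not involve the α-like ones. The canonical lengths, the sums without *HBZ* and the pooled *HBA1* and *HBA2* were added after the data were examined.

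The ratio of α-like to β-like turned without *HBZ* (0.1895 with DMSO, 0.1743 with TRIAC) and was 2.672 and 3.493 without *HBG2*. With *HBA1* and *HBA2* averaged it was 0.1073 with DMSO and 0.1839 with TRIAC. The ζ share with DMSO was 4.053% with the longest coding and with the canonical transcripts. With averaged *HBA1* and *HBA2* the ζ share was 11.72% with DMSO and 52.62% with TRIAC. The ε share, for DMSO and TRIAC, was 18.61% and 18.98% both without division and with coding length. It was 14.74% and 15.05% with the longest transcripts and 17.70% and 18.06% with the canonical ones. Without *HBG2*, where hardly any other β-like value is left, it turned to 99.89% and 99.52%. The embryonic share was 16.41% and 21.86% without division, 16.34% and 21.94% with coding length, 1.116% and 8.107% without *HBE1* and 31.73% and 49.90% without *HBG2*. With DMSO it was 12.59% with the longest and 15.38% with the canonical transcripts, and with TRIAC 6.577% without *HBZ*. With 5 added to both values the ratio of *HBB* was 7.233, and at a fold of 8 instead of 4, 2 globins passed. Ranked without division by length, *HBZ* was 55th, *HBA1* 9th and *HBA2* 20th with DMSO, and *HBE1* was second, rank 2, and *HBB* 108th with TRIAC. With the canonical length for *HBE1* alone and the listed one for the others, also added after the data were examined, the ε share was 17.63% and 17.98% and the embryonic share 15.89% and 21.42%; the ranks also move with the lengths of the other genes.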
